A study of Homo sapiens with 24 samples.

Results

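The comparison described here set HT-144 melanoma cells that received a non-targeting small interfering RNA (siNegative) beside HT-144 cells that were mock transfected. HT-144 is an established human line derived from a metastatic site of a malignant melanoma. The siNegative cells received pooled siRNA at 50 nM. For the mock cells the labels name no oligonucleotide, and the other conditions are described for all samples alike: reverse transfection with Lipofectamine RNAiMAX and 3 days in a medium whose serum substitute was 1% insulin, transferrin and selenium. The members were chosen by treatment label, which gave 8 of the 24 count files of the series, 4 sequencing lanes for each of the 2 libraries. The other 16 files hold an siRNA against SREBF1 (siSREBF1, 50 nM), a non-targeting antisense oligonucleotide (ASO-Neg, 5 nM) and 2 antisense oligonucleotides against that gene at 5 nM, labelled ASO-SREBF1-S1 and, for the other, ASO-SREBF1-S4, which are used here as side values. Polyadenylated RNA was sequenced in all of them.

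Double-stranded siRNAs are loaded into Argonaute proteins, which cleave perfectly matched transcripts and repress others through the short seed at the guide's 5′ end. Long double-stranded RNA, and some short RNA duplexes, can also be sensed by RIG-I, MDA5, PKR or endosomal Toll-like receptors, which switch on interferon-stimulated and inflammatory genes. A non-targeting siRNA is used to hold those general effects, and the transfection itself, constant in knockdown experiments. In melanoma cells the pigment program driven by the transcription factor MITF is often high when adhesion, matrix and WNT5A genes of the dedifferentiated state are low. The sequences of the siNegative duplexes were not used here, so no seed matches were searched.

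The siNegative library held 20014261 gene counts and the mock library 12916478. The 4 lanes of a library differed about as much as counting noise, with a chi-square per degree of freedom of 1.021 for siNegative and 1.018 for mock, so lanes were summed and each group was 1 library. There was therefore no test and no replicate check. The siRNA, the culture and the library preparation all differ between the 2 libraries and cannot be told apart. A gene counted as called when its log2 ratio, siNegative over mock, reached 1 in either direction (the 2-fold rule), or 0.585 with a 95% counting interval that excluded 0 (the 1.5-fold rule), and its level reached 10 CPM (counts scaled to library size) in 1 of the 2 libraries. A gene under 10 CPM in 1 library was therefore tested only through the library where it was higher, which favours calls among such genes. Intervals cover counting error only. They are narrower for abundant genes, so the share of a list whose intervals exclude 0 also depends on the level of its genes. Where such shares are set against all genes tested below, level was not matched.

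The expressed genes were those of melanoma cells. The melanosome protein PMEL stood at 2622 CPM in siNegative and 3487 CPM in mock cells, and the neural crest factor SOX10 at 508 CPM in siNegative and 534 CPM in mock cells. Of 12 immune markers 1 reached 1 CPM, the integrin ITGAX, and of 12 keratinocyte markers 2 did. Of 9 endothelial markers 2 reached 1 CPM, VWF and the receptor KDR, whereas CDH5, CLDN5 and ERG had 0 counts in both libraries. Of 11 fibroblast markers 9 reached 1 CPM and 4 reached 10 CPM, 2 of these with a positive and 2 with a negative ratio. The summed level of the list was 945 CPM in siNegative and 726 CPM in mock cells, most of it the collagen COL1A2. Other members of the list, DCN, at 1.51 CPM in siNegative and 1.94 CPM in mock cells, and COL1A1, at 1.06 CPM in siNegative and 0.542 CPM in mock cells, were near the floor. SREBF1, the transcription factor of lipid synthesis that the study targeted elsewhere, stood at 248 CPM in siNegative and 229 CPM in mock cells, against 54.8 CPM in siSREBF1 cells. Its relative SREBF2 stood at 565 CPM in siNegative and 593 CPM in mock cells.

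The 2 transcriptomes differed little in size of change. Of 9790 genes with at least 10 CPM, the log2 ratio lay between -0.22 and 0.25 for the middle 90%, with a median of 0.01, and the standard deviation over genes was 0.148. Under the 2-fold rule 1 gene, CHRDL1, was called higher in siNegative, which is 0.0102% of the genes tested, and none was called lower (0%). Under the 1.5-fold rule 42 genes were called higher (0.429%) and 6 lower (0.0613%). Of the 42 genes, 41 code for proteins and 26 stayed under 25 CPM in both libraries. CXCL14, GPC3, AIM2 and others of them were under 10 CPM in mock cells, so they passed the floor through siNegative alone. For 6 genes the whole counting interval lay beyond 1.5-fold: CHRDL1, CXCL14, THSD4, ADAM19 and OLFML3 were higher and DCT was lower.

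**Figure D1:**
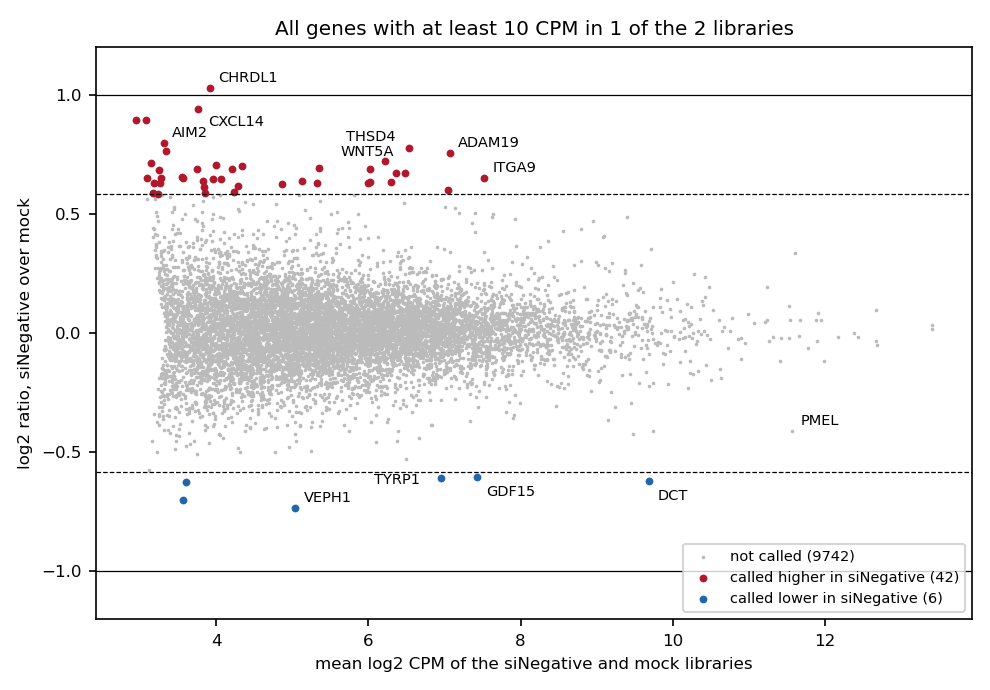
Each point is 1 of the 9790 genes with at least 10 CPM in 1 of the 2 libraries. The x axis is the mean log2 CPM of the siNegative and mock libraries and the y axis the log2 ratio, siNegative over mock. Dashed lines mark 1.5-fold and solid lines 2-fold. The 42 genes called higher in siNegative are red and mostly at low levels, and the 6 called lower are blue, with DCT the most abundant of them.

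Genes that detect or process double-stranded RNA differed little between the 2 libraries. RNA interference machinery comes first, since it handles the siRNA. All 16 listed genes were expressed, none was called, and the median log2 ratio was -0.01. Over all genes tested 0.429% were called higher and 0.0613% lower, so 0 of 16 does not set the list apart. AGO2, the Argonaute that cleaves target RNA, stood at 68.1 CPM in siNegative and 70.3 CPM in mock cells. DICER1, which releases small RNAs from their precursors, stood at 99.2 CPM in siNegative and 85.4 CPM in mock cells, a log2 ratio of 0.22 (0.11 to 0.32). TNRC6A, the partner through which Argonautes repress messenger RNAs, had a log2 ratio of 0.24 (0.15 to 0.33). These 2 were the members of the list whose counting interval lay above 0, as it did for 13.9% of all genes tested.

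The sensors themselves were as close. Of 13 nucleic acid sensors and adaptors at 10 CPM or more none was called, where 0.429% of all genes were called higher and 0.0613% lower. The median over the 16 at 1 CPM or more was -0.06. RIGI (RIG-I) stood at 7.91 CPM in siNegative and 8.06 CPM in mock cells. IFIH1 (MDA5) stood at 12.1 CPM in siNegative and 12 CPM in mock cells. EIF2AK2, the kinase PKR, stood at 97.6 CPM in siNegative and 96.4 CPM in mock cells. The counting intervals of these 3 ratios included 0. Of the receptors for endosomal RNA, TLR3 was detected at 3.73 CPM in siNegative and 4.03 CPM in mock cells, whereas TLR8 had 0 counts in both and TLR7 stayed below 0.1 CPM. A count of 0 allows up to 0.15 CPM in siNegative and 0.232 CPM in mock cells.

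Interferon-stimulated genes were not higher in siNegative cells by either rule. Of 21 at 10 CPM or more, 0 were called in either direction. Over all genes tested 0.429% were called higher and 0.0613% lower, so 0 of 21 does not set the list apart. None of the 21 had an interval above 0 and 5 had an interval below 0, against 13.9% and 10.7% of all genes tested. The median over the 34 genes at 1 CPM or more was -0.02. IFI6, an interferon-induced survival protein, had the lowest ratio of those 21, with 14.1 CPM in siNegative and 18.9 CPM in mock cells (log2 -0.42, -0.68 to -0.17). MX1, an antiviral GTPase, stood at 14.9 CPM in siNegative and 18.8 CPM in mock cells. IFIT1, which binds viral RNA ends, stood at 14.8 CPM in siNegative and 16.4 CPM in mock cells. The summed level of the list was 1200 CPM in siNegative and 1225 CPM in mock cells, inside the 1146 to 1465 CPM of the other 4 libraries.

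Among NF-kB and inflammatory genes 1 of 13 at 10 CPM or more was called higher, against 0.429% of all genes tested. It was the neutrophil chemokine CXCL8, with 11 CPM in siNegative and 7.28 CPM in mock cells (log2 0.59, 0.24 to 0.96). CXCL8 passed the floor through siNegative alone. It reached 48.2 CPM in siSREBF1 cells and 9.18 CPM in ASO-Neg cells. Its relative CXCL1 went the other way, with 9.22 CPM in siNegative and 12.9 CPM in mock cells (log2 -0.48, -0.80 to -0.18). TNFAIP3, the feedback inhibitor A20, stood at 33.7 CPM in siNegative and 41.8 CPM in mock cells. Of these 3, CXCL8 alone passed the rule, and the signs differed. AIM2, a cytosolic DNA sensor outside these lists, was called higher, with 13 CPM in siNegative and 7.44 CPM in mock cells (log2 0.80, 0.46 to 1.16). The mock library had the lowest AIM2 level of the 6 libraries, and ASO-SREBF1-S4 the highest, 19 CPM.

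Pigment genes were lower in siNegative cells. Of 13 melanosome genes at 10 CPM or more, 12 were lower with a counting interval below 0, against 10.7% of all genes tested. Of the 13, 2 were called lower, DCT and TYRP1, where 0.0613% of all genes tested were called lower. Both were given as markers when the comparison was chosen, with earlier results of these data known. Their calls therefore add no support beyond that choice, and they are among the 12 above. The median over the 18 genes at 1 CPM or more was -0.31, against 0.010 over all genes at that level. Their summed level was 5937 CPM in siNegative and 7547 CPM in mock cells, and 5152 to 6848 CPM in the other 4 libraries, so the mock library was the highest of the 6.

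DCT, dopachrome tautomerase of eumelanin synthesis, is encoded on the minus strand at chr13:94436811-94479682 (GRCh38). It stood at 664 CPM in siNegative and 1022 CPM in mock cells, a log2 ratio of -0.62 (-0.66 to -0.59). The other libraries held 733 CPM in siSREBF1, 556 CPM in ASO-SREBF1-S4, 970 CPM in ASO-SREBF1-S1 and 822 CPM in ASO-Neg cells. ASO-Neg thus lay between siNegative and mock, and siNegative was next to the lowest of the 6. TYRP1, its relative among the melanosomal oxidases, stood at 100 CPM in siNegative and 153 CPM in mock cells (log2 -0.61, -0.70 to -0.52). It ranged over 77.1 to 183 CPM in the other 4 libraries, with 122 CPM in ASO-Neg cells.

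The remaining pigment genes had smaller ratios that did not reach 1.5-fold. PMEL, which forms the melanosome fibrils, had a log2 ratio of -0.41 (-0.43 to -0.39). TYR, the rate-limiting oxidase tyrosinase, stood at 200 CPM in siNegative and 251 CPM in mock cells (log2 -0.33). MLANA, the antigen MART-1, stood at 14.5 CPM in siNegative and 19.7 CPM in mock cells (log2 -0.44). The melanosome transport genes RAB27A and MYO5A had log2 ratios of -0.26 and -0.23. S100B, a calcium-binding melanoma marker, was the exception of the 13, at 221 CPM in siNegative and 213 CPM in mock cells. DCT, PMEL, MLANA and TYR were all highest in the mock library of the 6.

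**Figure D2:**
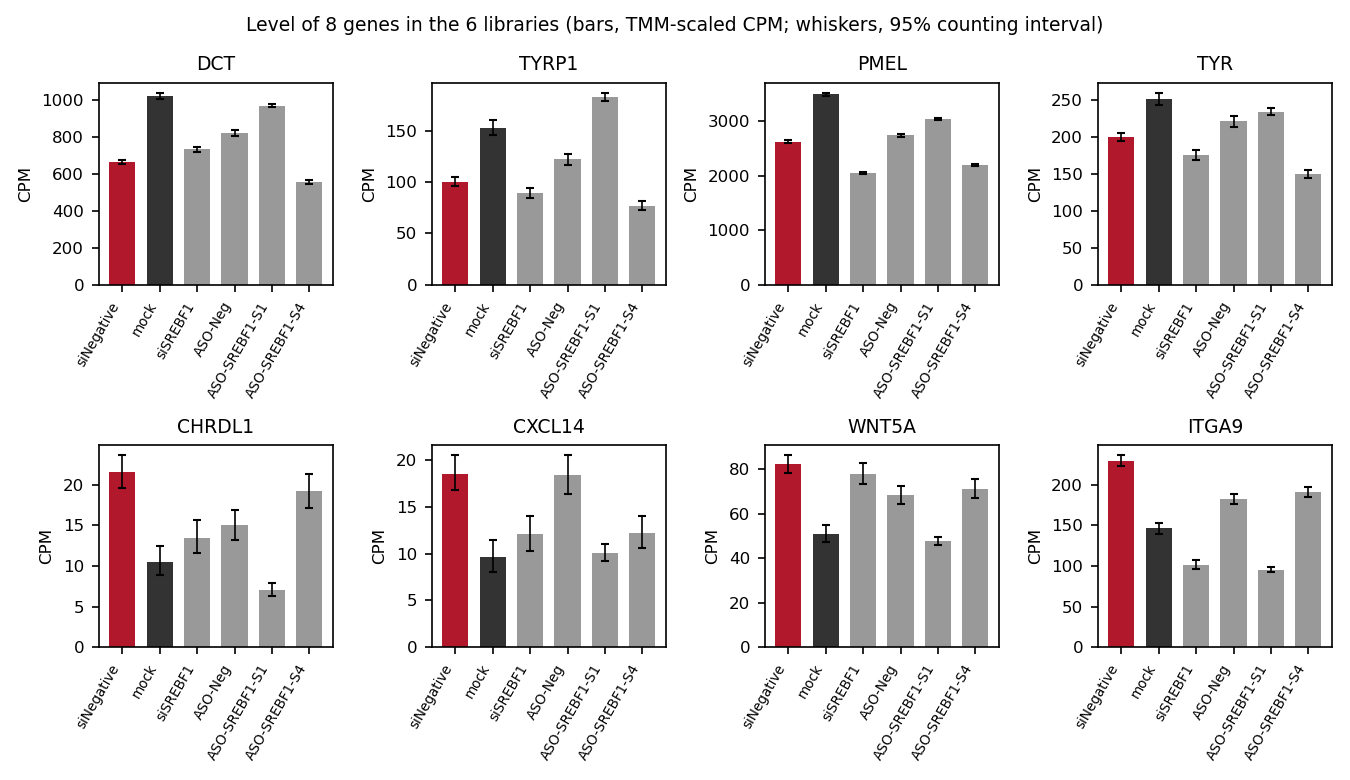
Bars give the level (y axis, CPM scaled by TMM) of 8 genes in each of the 6 libraries (x axis), with siNegative red, mock black and the other libraries grey. Whiskers are exact 95% Poisson counting intervals. The pigment genes in the upper row were lower in siNegative than in mock, with DCT at 664 and 1022 CPM. The genes in the lower row were higher in siNegative, with CHRDL1 at 21.6 and 10.5 CPM.

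Regulators of the pigment lineage showed the same sign with less size. Of 14 at 10 CPM or more, 13 were lower, 9 with an interval below 0, against 47% and 10.7% of all genes tested, and none was called. MITF stood at 447 CPM in siNegative and 529 CPM in mock cells (log2 -0.24, -0.29 to -0.20). SOX10, which activates MITF and DCT, had a log2 ratio of -0.07 (-0.12 to -0.03), and PAX3 one of -0.03 (-0.27 to 0.20). MET, a receptor kinase and MITF target, stood at 72.8 CPM in siNegative and 96.9 CPM in mock cells (log2 -0.41). CDK2, another MITF target whose gene lies beside PMEL, stood at 501 CPM in siNegative and 644 CPM in mock cells (log2 -0.36). LEF1, a Wnt transcription factor, was the member with a positive ratio, 0.15. In bulk RNA, fewer cells that express a gene and less of its RNA per cell cannot be told apart.

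The promoters of DCT, TYRP1 and TYR are shown because they carry the M-box, the letters TCATGTG through which MITF is known to act on pigment genes, and CHRDL1 is shown beside them as the gene with the highest ratio. The sequences are RefSeq promoters on GRCh38.p14, limited to the 250 bases before the annotated start and written 5′ to 3′ on the strand of the gene, with M-box letters on either strand in capitals. They lie at chr13:94479683-94479932 (minus strand) for DCT, chr9:12693135-12693384 (plus strand) for TYRP1, chr11:89177625-89177874 (plus strand) for TYR and chrX:110795818-110796067 (minus strand) for CHRDL1.
DCT: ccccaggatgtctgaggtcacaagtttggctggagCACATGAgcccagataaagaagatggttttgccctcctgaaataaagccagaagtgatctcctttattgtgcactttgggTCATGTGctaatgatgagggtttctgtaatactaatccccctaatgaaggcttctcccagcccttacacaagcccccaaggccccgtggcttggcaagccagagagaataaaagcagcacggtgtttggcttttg
TYRP1: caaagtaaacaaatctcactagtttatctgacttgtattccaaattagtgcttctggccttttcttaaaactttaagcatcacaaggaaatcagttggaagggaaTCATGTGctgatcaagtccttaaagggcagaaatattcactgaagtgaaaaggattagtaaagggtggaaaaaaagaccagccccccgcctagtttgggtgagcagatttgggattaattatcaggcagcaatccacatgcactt
TYR: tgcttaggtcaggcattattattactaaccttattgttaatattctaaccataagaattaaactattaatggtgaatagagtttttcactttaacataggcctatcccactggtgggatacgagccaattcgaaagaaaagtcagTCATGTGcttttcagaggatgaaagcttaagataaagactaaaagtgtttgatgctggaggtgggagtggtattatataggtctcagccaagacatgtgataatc
CHRDL1: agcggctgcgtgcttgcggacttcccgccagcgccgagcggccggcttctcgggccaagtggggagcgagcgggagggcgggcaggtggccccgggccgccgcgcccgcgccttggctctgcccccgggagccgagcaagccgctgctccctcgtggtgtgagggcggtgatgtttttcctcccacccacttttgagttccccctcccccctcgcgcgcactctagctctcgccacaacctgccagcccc

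The M-box began 135 bases before the start in DCT, 145 in TYRP1 and 105 in TYR, and DCT held another on the opposite strand, 215 bases before the start. DCT has 2 RefSeq windows, and the shown window was chosen because it held the M-box. The other, at chr13:94549407-94549656, held no M-box. The CHRDL1 window held none. Among 35116 RefSeq promoter windows of the same length, 2.52% held TCATGTG on either strand, and 9.42% held the shorter CATGTG that it contains. Of 20 melanosome genes 16 had a RefSeq entry, and 6 of these held an M-box in any of their windows: DCT, TYRP1, TYR, GPR143, SLC24A5 and GPNMB. That count is per gene, whereas the shares above are per window. Of genes with an M-box, the log2 ratio was -0.62 for DCT, -0.61 for TYRP1, -0.33 for TYR and -0.15 for GPNMB. The ratios of GPR143 and SLC24A5 are not given here, so these values are not the full set. MLANA, whose window held no M-box, was at -0.44. Whether the motif and the ratio go together was not tested. The other 3 motifs were searched on both strands, TGANTCA of AP-1 (6.57% of windows), the interferon response element (3.02%) and TATAAA (10.7%). CXCL14 held TGANTCA 92 bases before its start and CHRDL1 held none of the 5 motifs. AIM2 held both TGANTCA and the interferon response element. A match describes the letters only.

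The highest ratios were those of CHRDL1 and CXCL14, both secreted proteins and both given as markers of this comparison when it was chosen. CHRDL1, a secreted antagonist of bone morphogenetic proteins (BMPs), lies at chrX:110673856-110795819. It had 428 counts and 21.6 CPM in siNegative cells, and 136 counts and 10.5 CPM in mock cells, a log2 ratio of 1.03 (0.75 to 1.32). The other libraries held 13.5 CPM in siSREBF1, 19.2 CPM in ASO-SREBF1-S4, 7.07 CPM in ASO-SREBF1-S1 and 15 CPM in ASO-Neg cells. siNegative was the highest of the 6 and mock next to the lowest. CXCL14, a chemokine of skin, had 18.6 CPM in siNegative and 9.68 CPM in mock cells (log2 0.94, 0.65 to 1.25). ASO-Neg cells held 18.4 CPM of it, close to siNegative, and siSREBF1 cells 12.1 CPM.

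The BMP list held 16 genes at 10 CPM or more, of which 2 were called higher, CHRDL1 and the ligand BMP6, and 13 had a positive ratio. Over all genes tested 0.429% were called higher and 53% had a positive ratio. CHRDL1 was given as a marker, and members that passed the floor through siNegative alone were bound to have a positive ratio. The counts of this list are therefore description only. BMP6 stood at 11.8 CPM in siNegative and 7.59 CPM in mock cells (log2 0.63), so it passed the floor through siNegative alone. FST, an activin and BMP trap, stood at 168 CPM in siNegative and 117 CPM in mock cells, a log2 ratio of 0.52 (0.44 to 0.61) that missed the 1.5-fold rule. The ligand BMP4 had 10.2 CPM in siNegative and 6.89 CPM in mock cells, and it too passed the floor through siNegative alone. Receptors and targets of BMPs follow. BMPR1A was at 0.02, BMPR2 at 0.13 and ACVR1 at -0.07 on the log2 scale. ID1, a direct BMP target, stood at 2.52 CPM in siNegative and 3.02 CPM in mock cells, and ID3 at 6.2 CPM in siNegative and 4.18 CPM in mock cells.

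WNT5A, the ligand of noncanonical Wnt signalling in dedifferentiated melanoma, stood at 82.3 CPM in siNegative and 51 CPM in mock cells (log2 0.69, 0.56 to 0.82). It had 77.9 CPM in siSREBF1, 71.2 CPM in ASO-SREBF1-S4, 47.7 CPM in ASO-SREBF1-S1 and 68.3 CPM in ASO-Neg cells. Mock was next to the lowest of the 6. WNT5A was listed with the dedifferentiated state and is not part of the Wnt list. None of the 9 genes of the Wnt list at 10 CPM or more was called, where 0.429% of all genes tested were called higher. Of the 9, 8 had a positive ratio, 4 with an interval above 0, against 53% and 13.9% of all genes tested. The median over the 17 genes at 1 CPM or more was 0.12. SFRP1, a secreted Wnt inhibitor, stood at 945 CPM in siNegative and 740 CPM in mock cells (log2 0.35), and AXIN2, the canonical Wnt target, at 4.48 CPM in siNegative and 3.56 CPM in mock cells.

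GDF15, a stress-induced secreted factor, was called lower, at 140 CPM in siNegative and 213 CPM in mock cells (log2 -0.60, -0.68 to -0.53). siNegative was the lowest of the 6 libraries, with 147 CPM in ASO-Neg cells beside it. The other genes called lower were VEPH1, an intracellular adaptor, with 25.4 CPM in siNegative and 42.4 CPM in mock cells (log2 -0.73), SERPINF1, the secreted serpin PEDF, at -0.70, and METRNL, a secreted meteorin relative, at -0.62. SERPINF1 and METRNL stayed at or below 15 CPM in both libraries.

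Adhesion and matrix genes were higher in siNegative cells, in many members by less than 1.5-fold. Of 26 adhesion genes 21 had a positive ratio, 18 with an interval above 0, against 53% and 13.9% of all genes tested. Of the 26, 3 were called higher, ITGA1, ITGA9 and ITGA10, against 0.429% of all genes tested. The median was 0.24. Integrins are the cell's receptors for matrix proteins. Over all 16 integrin subunit genes at 10 CPM or more, a set taken by name after the values were seen, the median was 0.33. Of these 14 had a positive ratio, 13 with an interval above 0, and 4 were called higher, against the same 53%, 13.9% and 0.429%. The 4 were the 3 named above and ITGA11, so the 2 sets count the same genes in part.

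ITGA9, which pairs with the β1 subunit to bind tenascin and osteopontin, stood at 230 CPM in siNegative and 147 CPM in mock cells (log2 0.65, 0.57 to 0.73). It had 101 CPM in siSREBF1 and 182 CPM in ASO-Neg cells, so the 2 siRNA libraries lay on opposite sides of mock. ITGA1, a collagen receptor subunit, stood at 104 CPM in siNegative and 64.9 CPM in mock cells (log2 0.67, 0.56 to 0.79). ITGA10 and ITGA11, which are collagen receptor subunits too, had log2 ratios of 0.69 and 0.71 at 23.4 and 20.4 CPM in siNegative and 14.5 and 12.5 CPM in mock cells. The abundant ITGB1, their shared partner, stood at 636 CPM in siNegative and 580 CPM in mock cells, a log2 ratio of 0.13 (0.09 to 0.17). ITGA7, a laminin receptor subunit, went the other way at -0.23, as did L1CAM, a neural adhesion molecule, at -0.36.

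Of 23 collagen and matrix genes at 10 CPM or more, 20 had a positive ratio, 13 with an interval above 0, against 53% and 13.9% of all genes tested. Of the 23, 1 was called higher, COL15A1, against 0.429% of all genes tested. COL15A1, a basement membrane collagen, stood at 162 CPM in siNegative and 107 CPM in mock cells (log2 0.60, 0.51 to 0.69). SPARC, a secreted collagen-binding glycoprotein, stood at 3496 CPM in siNegative and 2774 CPM in mock cells (log2 0.33). COL1A2 had a log2 ratio of 0.48, and the proteoglycan VCAN one of 0.50. Abundant members near 0 or below it were COL4A2 at 0.02, COL5A2 at 0.04 and SPP1, osteopontin, at -0.20. The summed level of the list was 10665 CPM in siNegative and 9137 CPM in mock cells, and 9189 to 10381 CPM in the other 4 libraries, so these 2 libraries held the highest and the lowest sum of the 6.

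Other matrix and membrane genes were called higher as well. ADAM19, a membrane metalloproteinase, stood at 174 CPM in siNegative and 103 CPM in mock cells (log2 0.75, 0.66 to 0.85). It had 174 CPM in siSREBF1, 119 CPM in ASO-SREBF1-S4, 104 CPM in ASO-SREBF1-S1 and 119 CPM in ASO-Neg cells, so the 2 siRNA libraries were at the same level. THSD4, a fibrillin-binding protein, stood at 121 CPM in siNegative and 70.6 CPM in mock cells (log2 0.78, 0.67 to 0.89), with 154 CPM in siSREBF1 and 96.9 CPM in ASO-Neg cells. OLFML3, a secreted olfactomedin relative, stood at 95.7 CPM in siNegative and 58 CPM in mock cells (log2 0.72, 0.60 to 0.85). Its level was 73.4 CPM in siSREBF1 and 68.1 CPM in ASO-Neg cells. ADAM19 belongs to the metalloproteinase list, whose other 15 members at 10 CPM or more were not called.

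MGP, a calcification inhibitor, stood at 112 CPM in siNegative and 70.5 CPM in mock cells. IGFBP5, a binding protein for insulin-like growth factors, stood at 98.2 CPM in siNegative and 63.2 CPM in mock cells. GPC3, a cell surface glypican, stood at 11.4 CPM in siNegative and 6.12 CPM in mock cells. Their log2 ratios were 0.67, 0.63 and 0.89. Other secreted or matrix genes called higher were ADAMTS9, FAM20A, ITIH6, NELL1 and NPTX2, with log2 ratios of 0.63 to 0.69. Called genes of receptors, channels and membrane proteins were ACKR1, ALK, COLEC12, CSMD2, FLT1, KCNK5, KCNN3, MDGA1, PCDH9, PODXL, TRPM3 and UNC13A, with log2 ratios of 0.59 to 0.71. The rest were FAM131B, FSD1, LDLRAD4, PTGS1, RAB7B, TENT5C and the long noncoding RNA ENSG00000264112, between 0.59 and 0.76.

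The dedifferentiated state of melanoma, the counterpart of the pigment program, had a median log2 ratio of 0.28 over 21 genes at 1 CPM or more. Of 15 at 10 CPM or more, 12 were higher, 10 of them with an interval above 0, against 53% and 13.9% of all genes tested. Of the list 2 were called higher, against 0.429% of all genes, WNT5A and TNFRSF11B, the decoy receptor osteoprotegerin. TNFRSF11B had 10.4 CPM in siNegative and 5.58 CPM in mock cells (log2 0.89) and passed the floor through siNegative alone. NT5E, the ectonucleotidase CD73, stood at 155 CPM in siNegative and 107 CPM in mock cells (log2 0.53). NGFR, the neural crest receptor CD271, had 56.2 CPM in siNegative and 41.5 CPM in mock cells (log2 0.44). AXL, a receptor kinase of that state, stood at 118 CPM in siNegative and 98.1 CPM in mock cells (log2 0.26, 0.16 to 0.36). FN1 and CD44 were both at -0.02. The summed level was 4701 CPM in siNegative and 4345 CPM in mock cells, below the 4927 to 5230 CPM of the other 4 libraries in both.

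**Figure D3:**
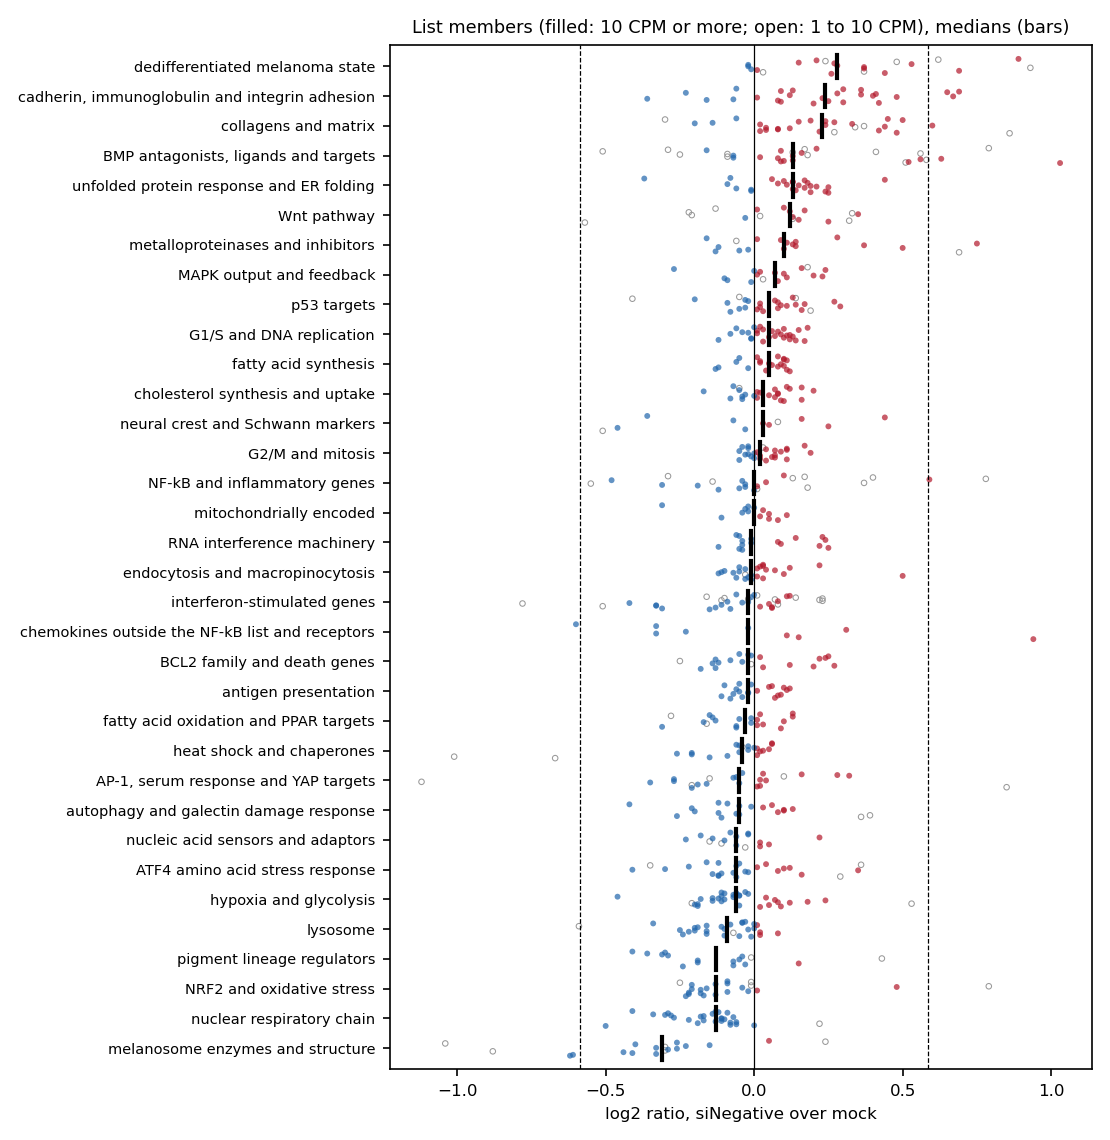
Each row is a gene list with at least 8 members at 10 CPM or more, and the x axis is the log2 ratio, siNegative over mock. Filled dots are members at 10 CPM or more, red above 0 and blue at or below it, open dots are members between 1 and 10 CPM, and black bars are medians over both. Dashed lines mark 1.5-fold. The lists run from the dedifferentiated state, with a median of 0.28, to the melanosome genes, with a median of -0.31.

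Organelle genes differed by small amounts in which few or no members were called. Of 25 genes of the unfolded protein response and folding in the endoplasmic reticulum, 19 had a positive ratio, 13 with an interval above 0, against 53% and 13.9% of all genes tested, and the median was 0.13. HSPA5, the lumenal chaperone BiP, stood at 1351 CPM in siNegative and 1138 CPM in mock cells (log2 0.25, 0.22 to 0.28). HYOU1, its exchange factor, stood at 515 CPM in siNegative and 381 CPM in mock cells (log2 0.44, 0.39 to 0.48). DDIT3, the stress-induced factor CHOP, went the other way, with 16.1 CPM in siNegative and 20.9 CPM in mock cells (log2 -0.37, -0.61 to -0.14). The chaperones and the stress effector thus had opposite signs.

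Nuclear genes of the respiratory chain were slightly lower. Of 27 at 10 CPM or more 26 had a negative ratio, 19 of them with an interval below 0, against 47% and 10.7% of all genes tested, and the median was -0.13. NDUFA1, a small complex I subunit, had the lowest ratio, with 31.8 CPM in siNegative and 44.9 CPM in mock cells (log2 -0.50, -0.66 to -0.33). COX5B, of complex IV, stood at 71.7 CPM in siNegative and 88.5 CPM in mock cells. The median was 0.00 for the 13 genes encoded in mitochondrial DNA. All 38 NDUF genes at 10 CPM or more, a set taken by name after the values were seen, had a median of -0.10, and 80 cytosolic ribosomal protein genes one of -0.01.

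Of 18 genes of the NRF2 oxidative stress response 16 had a negative ratio, 9 with an interval below 0, against the same 47% and 10.7% of all genes. NQO1, a quinone reductase, stood at 1085 CPM in siNegative and 1271 CPM in mock cells (log2 -0.23, -0.26 to -0.20). AKR1C1, an aldo-keto reductase with near-identical relatives, went the other way at 0.48. Of 26 lysosomal genes 21 were below 0, with ASAH1, acid ceramidase and an MITF target, lowest at -0.34. SLC7A5, the large amino acid transporter of the ATF4 list, stood at 738 CPM in siNegative and 981 CPM in mock cells (log2 -0.41), and its partner SLC3A2 had a log2 ratio of -0.30. None of these passed the 1.5-fold rule.

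Proliferation, survival and lipid genes had medians near 0. No gene was called among 28 of G1/S and DNA replication (median 0.05), 25 of G2/M and mitosis at 10 CPM or more (0.02), 22 p53 targets (0.05), 18 BCL2 family and death genes (-0.02), 23 of cholesterol synthesis and uptake (0.03) and 20 of fatty acid synthesis (0.05). The same held for the genes of hypoxia and glycolysis (-0.06), fatty acid oxidation and PPAR targets (-0.03), endocytosis (-0.01), autophagy (-0.05), heat shock (-0.04), antigen presentation (-0.02), MAPK output (0.07), AP-1 and YAP targets (-0.05), and neural crest and Schwann cells (0.03). With 0.429% of all genes called higher and 0.0613% lower, 0 calls does not set these lists apart. In some of them the counting intervals leaned to 1 side. Of 31 hypoxia and glycolysis genes 16 had an interval below 0 and 4 above it. Of 23 cholesterol genes 10 had an interval above 0 and 3 below it, and of 20 fatty acid synthesis genes 8 and 3. Over all genes tested the shares were 13.9% above 0 and 10.7% below it. Abundant sets exceeded these shares without a shifted median. Of 80 cytosolic ribosomal protein genes (median -0.01), 16 had an interval above 0 and 23 below it. Of the 13 genes encoded in mitochondrial DNA (median 0.00), 6 had an interval above 0 and 5 below it. SLC7A11 of the ATF4 list, whose median was -0.06, had a log2 ratio of 0.35. Nuclear and histone RNAs, listed as signs of RNA quality, had a median of 0.04.

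Transcript length and base composition moved with the ratio. Across 9782 genes with an annotated transcript, Spearman's rho of the log2 ratio was 0.18 with transcript length and -0.11 with GC content, values taken over genes that share the same 2 libraries. The median log2 ratio was -0.02 in the shortest quintile of transcripts and 0.04 in the longest. The 42 genes called higher had a median length of 5538 bases and the 6 called lower one of 2398 bases, against 4137 bases over all genes tested. With the median of its length quintile taken off each gene, 37 of the 42 and 5 of the 6 remained called. Since those medians lay between -0.02 and 0.04, this step could drop only genes close to the threshold. The integrin subunits then had a median of 0.31, the collagen chains 0.13 and the NDUF genes -0.10, against 0.33, 0.16 and -0.10 before. The part of length in the single genes was not tested further.

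**Figure D4:**
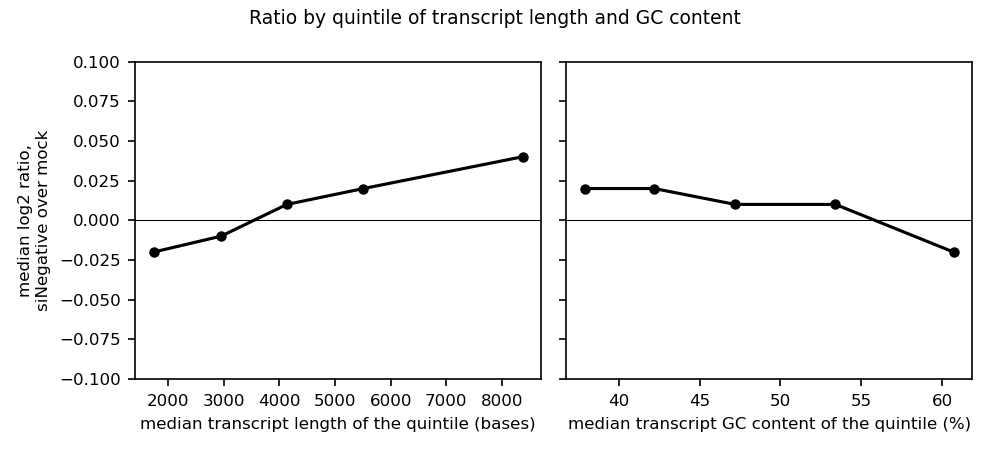
Points are quintiles of 9782 genes by transcript length (left, bases) or GC content (right, percent), placed at the median of the quintile. The y axis is the median log2 ratio, siNegative over mock, which lay between -0.02 and 0.04 over the length quintiles.

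The other pairs of control libraries give the size of difference that 2 such libraries showed here, and all 3 pairs share libraries. ASO-Neg over mock had 1 gene higher (0.0102%) and 7 lower (0.0717%) under the 2-fold rule, and 17 higher (0.174%) and 38 lower (0.389%) under the 1.5-fold rule, of 9763 tested. siNegative over ASO-Neg had 8 higher (0.0817%) and 1 lower (0.0102%) under the 2-fold rule, and 30 higher (0.306%) and 4 lower (0.0409%) under the 1.5-fold rule, of 9791 tested. The standard deviation of the log2 ratio over genes was 0.171 for ASO-Neg over mock and 0.153 for siNegative over ASO-Neg, beside 0.148 for siNegative over mock. By that measure siNegative and mock were the closest of the 3 pairs. By calls under the 1.5-fold rule they were not, with 42 higher and 6 lower against 30 and 4 for siNegative over ASO-Neg. Differences between pairs were not tested.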

How the data were processed

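RNA was measured in 24 count files, 4 sequencing lanes of each of 6 libraries. The deposited values are whole-number read counts per gene. Per the submitters' processing notes, the authors used STAR 2.6.1a and FastQC on GRCh38; the read pairs were of 75 bp. Which annotation they counted on is not given in the sources used here. Libraries were strand-specific, per the labels' protocols, and the reverse-strand count column was used, since the other strand held 6.47% to 7.79% of the counts. Lines that name no gene, 18.18% to 19.35% of a library, were left out. Of 58735 gene identifiers 58207, with 99.93% of the counts, matched GENCODE release 44.

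Lanes were summed, since the series text calls them technical. CPM were scaled by TMM over the 6 libraries in edgeR 4.0.16 (R 4.3.3), and log2 ratios used a prior count of 2. Counting intervals of 95% are exact conditional binomial (Clopper-Pearson, scipy 1.17.1). With 1 library per group no test was run. Steps were tested on simulated data. DESeq2 1.42.0 served only for size factors as an alternative scaling. Transcript length is that of GENCODE.

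The comparison and the 39 gene lists were chosen with earlier results of these data known. Counts of called members use genes at 10 CPM or more, and list medians use genes at 1 CPM or more. Named by rule were SREBF1, SREBF2, the marker genes, genes past the 2-fold rule and up to 4 members of each list past the 1.5-fold rule. Other genes were named after their values were seen. How the other 4 libraries place over all called genes was not summarised, because each place would be set against the siNegative and mock levels that chose the genes. The symbols DDX58, TMEM173, SOD2 and H3C2 were among those that matched no gene name, and DDX58 and TMEM173 are older symbols of genes listed under current ones.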

Additional observations from a re-analysis of the deposited data

How the results depend on the processing

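Counts of called genes depended on the floor on low levels. With a floor of 5 CPM, 4 genes were higher and 3 lower under the 2-fold rule, and 71 and 25 under the 1.5-fold rule. With 20 CPM, 22 were higher under the 1.5-fold rule. With no floor, the counts were 1501 and 928 under the 2-fold rule and 244 and 205 under the 1.5-fold rule, since genes with few counts then pass. Under total counts or DESeq2 size factors 38 of the 42 higher genes and all 6 lower ones were kept, and with GC content corrected 39 and 5. The corrections for length and GC content were chosen after seeing the data, and both were small, so they could drop only genes close to the threshold. Leaving out 1 lane of both libraries at a time gave 1 gene higher and 0 lower under the 2-fold rule, and 41 to 50 higher and 7 to 9 lower under the 1.5-fold rule, with turnover: 33 to 36 of the 42 higher and 4 to 6 of the 6 lower genes were kept, and 8 to 14 higher and 2 to 4 lower were added. All 825 values of named genes under the alternatives lay inside their counting intervals, and 538 of 540 list medians moved by less than 0.1. Alternatives that changed only the floor cannot move the ratio of a gene, so the part of the 825 that came from them was fixed in advance. The exceptions were the melanosome genes without lane 3 (-0.42) and the chemokine list without lane 4 (0.09, against -0.02). No paired analysis was possible because each group is 1 library whose numbered files are lanes. Depth, 12916478 counts in the mock library, limits values under about 10 CPM.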
